A study of Homo sapiens with 6 samples.

Results

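The core circadian clock genes were examined in LoVo cells after knockdown of SRSF11. The set held 10 genes, taken by name from the 58735 genes of the count table: ARNTL (also called BMAL1), CLOCK, PER1, PER2, PER3, CRY1, CRY2, NR1D1, NR1D2 and DBP. LoVo is an established human colorectal cancer line, and SRSF11 is a serine/arginine-rich protein that takes part in pre-mRNA splicing. Cells were transfected with a negative control siRNA (si-NC, 3 libraries) or an SRSF11 siRNA (si-SRSF11, 3 libraries), and mRNA selected with poly-T beads was sequenced as 150 bp read pairs. Which of the study's SRSF11 siRNAs was sequenced, the time of harvest and any synchronization of the cells are not given in the sources used here. The study describes the RNA samples as independent and in pairs, but neither it nor the deposited labels say that they came from separate cultures or which libraries form a pair, so p-values measure the spread between these libraries, which may be technical.

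The clock is a feedback loop of transcription. ARNTL and CLOCK form a dimer that binds the E-box, a short DNA motif, and switches on the PER, CRY, NR1D and DBP genes. PER and CRY proteins gather, enter the nucleus and block the dimer that made them, while the nuclear receptors NR1D1 and NR1D2 (REV-ERB alpha and beta) repress ARNTL from a second motif. DBP is an output factor that drives genes through the D-box. The loop runs in most cells of the body, including cultured cells, where single cells drift out of phase unless they are synchronized.

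Library totals ranged from 14369525 to 16685719 counts. Levels are given as CPM, a gene's counts per 1000000 counts of the tested genes after TMM scaling. A gene entered the test if 3 or more libraries held 10 or more of its counts, which left 15801 genes, and edgeR's quasi-likelihood method compared the conditions. A gene was called when its p, adjusted over all tested genes by the Benjamini-Hochberg method, was under 0.05. SRSF11 itself stood at 87.6, 84.3 and 87.5 CPM in si-NC and at 50.4, 48.5 and 49.5 CPM in si-SRSF11, 57.2% of the control level (log2 fold change -0.81, adjusted p = 6.1e-10), so its RNA was lower in each library labelled as knockdown. Each of the 10 colorectal epithelial markers examined was tested, and their summed level was 6108 to 6491 CPM in si-NC and 6170 to 6602 CPM in si-SRSF11. Of these, CDX1 and CDX2, transcription factors of the intestine, rose (log2 fold changes 0.31 and 0.40, adjusted p = 0.0012 and 3.8e-04), and their part in the clock gene results was not tested. KRT20, a marker of differentiated colon cells, was low, with 6 to 20 counts per library. Of 10 fibroblast, leukocyte and endothelial markers, 3 passed the filter on low counts, COL1A1, PECAM1 and VWF, and none of these was called. PTPRC and DCN were among those with 0 counts in all 6 libraries. The summed level was 13.9 to 15.6 CPM in si-NC and 11.8 to 15.4 CPM in si-SRSF11. Most of it came from the fibroblast marker COL1A1, with means of 12.7 CPM in si-NC and 11.7 CPM in si-SRSF11.

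The 3 promoter windows below are shown because they hold an E-box or a D-box, the motifs through which members of the loop act on each other. RefSeq (GRCh38.p14) gave 15 windows of 300 bases for the 10 genes, each running from 250 bases before to 50 bases after an annotated start. Capitals mark the E-box CACGTG, the D-box TTATGTAA and the nuclear receptor motif AGGTCA, searched on both strands, so that a match on the opposite strand reads as its reverse complement. Sequences run 5′ to 3′ on the strand of the gene.
PER1, chr17:8152355-8152654, minus strand: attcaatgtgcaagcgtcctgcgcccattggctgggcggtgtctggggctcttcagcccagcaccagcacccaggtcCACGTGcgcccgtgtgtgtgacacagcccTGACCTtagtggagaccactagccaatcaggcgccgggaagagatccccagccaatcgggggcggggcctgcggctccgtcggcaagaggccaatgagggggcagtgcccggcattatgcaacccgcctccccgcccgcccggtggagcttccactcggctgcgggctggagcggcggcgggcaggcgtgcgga
PER3, chr1:7784041-7784340, plus strand: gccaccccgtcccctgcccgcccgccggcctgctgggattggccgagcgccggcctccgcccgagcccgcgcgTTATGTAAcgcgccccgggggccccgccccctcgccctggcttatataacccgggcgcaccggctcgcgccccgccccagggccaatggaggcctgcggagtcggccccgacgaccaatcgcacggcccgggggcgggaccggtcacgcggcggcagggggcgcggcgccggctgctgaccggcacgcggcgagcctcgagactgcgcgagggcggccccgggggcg
NR1D2, chr3:23945871-23946170, plus strand: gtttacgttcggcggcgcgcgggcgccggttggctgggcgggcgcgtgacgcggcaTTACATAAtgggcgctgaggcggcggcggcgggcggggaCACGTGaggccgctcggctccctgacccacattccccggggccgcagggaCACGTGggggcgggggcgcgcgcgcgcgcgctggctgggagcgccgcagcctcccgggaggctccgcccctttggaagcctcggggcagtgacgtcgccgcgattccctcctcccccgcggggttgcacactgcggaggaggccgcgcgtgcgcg

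Positions are those of the first base of a match relative to the start. The E-box of PER1 began at -173, and its AGGTCA match lay on the opposite strand at -144. NR1D2 held E-boxes at -155 and -105 and a D-box on the opposite strand at -194, and PER3 held a D-box at -177. AGGTCA was also found in 1 window of ARNTL, at 32, and in both windows of CRY2, at -62 and -64. No match was found in the windows of CLOCK, PER2, CRY1, NR1D1 or DBP, which says only that these letters are not in the windows searched. The E-box occurred in 2 of the 15 windows and in 7.26% of 35116 promoter windows of the genome, the D-box in 2 and in 0.886%, and AGGTCA in 4 and in 13.8%.

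All 10 clock genes passed the filter on low counts and all 10 were called. Across all tested genes 24.6% were called. ARNTL, PER1, PER2, PER3, CRY1, CRY2, NR1D1, NR1D2 and DBP fell, 9 of 10 genes beside 11.4% of all tested genes, and CLOCK alone rose, 1 of 10 beside 13.2%. The median log2 fold change of the set was -0.39, against 0.00 over all tested genes. The set was chosen with earlier results of these data known, so these shares and medians are a description and not a test. The count of all genes called higher and lower depended on the scaling, with 2081 higher and 1805 lower under TMM and 1585 higher and 2289 lower when scaled by library totals, and the median of the clock genes was then -0.42. Since RNA was taken from whole cultures, fewer cells making a transcript and less transcript per cell cannot be told apart.

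**Figure D1:**
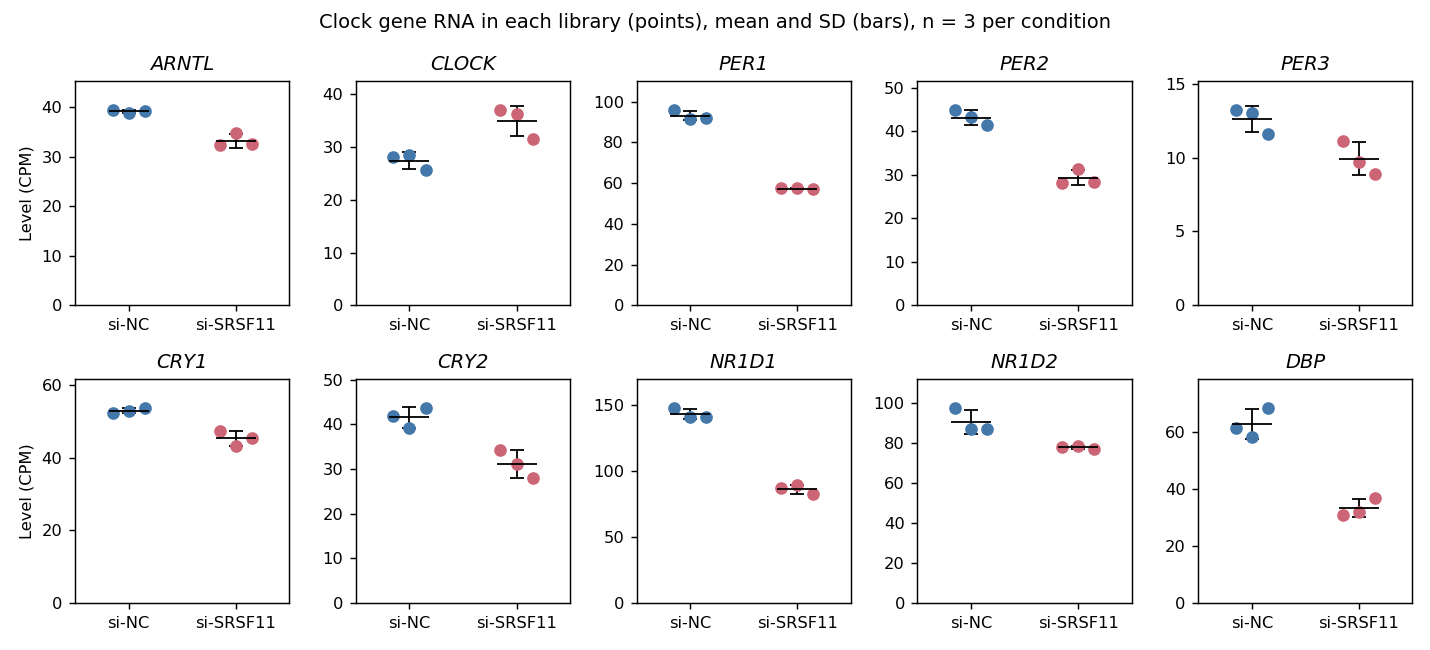
Level of each clock gene in CPM in the 3 si-NC and 3 si-SRSF11 libraries (points), with the mean and SD of each condition (bars). In each panel the points of the 2 conditions lie apart, with si-SRSF11 above si-NC for CLOCK and below it for the other 9 genes.

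For each of the 10 genes the range of the si-SRSF11 libraries lay outside that of the si-NC libraries, as it did for 38.8% of all tested genes. An exact two-sided permutation test gave p = 0.10 for each gene, the smallest p that 3 libraries against 3 allow. None of the 10 changed by more than 1 on the log2 scale by edgeR or DESeq2, a size that 1.09% of tested genes passed together with the adjusted p. DBP came nearest, with a log2 fold change of -0.91.

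The activator pair split. CLOCK, a subunit of the dimer that switches on the loop, was at 28.2, 28.5 and 25.7 CPM in si-NC replicates 1, 2 and 3 and at 37.0, 36.3 and 31.6 CPM in the si-SRSF11 replicates. Its lowest knockdown library lay above its highest control library, and its mean rose from 27.5 ± 1.55 to 35.0 ± 2.92 CPM (SD, n = 3). The level in si-SRSF11 was 127% of that in si-NC (95% interval 114 to 143%, log2 fold change 0.35, SE 0.0786, adjusted p = 0.0022). ARNTL, the partner of CLOCK in the dimer, was at 39.4, 38.8 and 39.3 CPM in si-NC and at 32.4, 34.9 and 32.5 CPM in si-SRSF11. The control libraries of ARNTL lay within 1 CPM of each other, and all the knockdown libraries were below them. ARNTL fell to 85.0% of its control level (95% interval 77.2 to 93.5%, log2 fold change -0.23, SE 0.0668, adjusted p = 0.013). CLOCK lies on chromosome 4 (GRCh38, 55427903 to 55547138, minus strand) and ARNTL on chromosome 11 (13276652 to 13387266, plus strand).

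Among the PER genes, whose proteins carry the repressive arm into the nucleus, PER1 changed most. PER1 was at 95.8, 91.6 and 92.1 CPM in si-NC and at 57.4, 57.4 and 57.1 CPM in si-SRSF11. The knockdown libraries were nearly equal, and the gene fell to 61.5% of its control level (95% interval 57.1 to 66.3%, log2 fold change -0.70, SE 0.0523, adjusted p = 2.5e-09). By unadjusted p, PER1 ranked 29 of the 15801 tested genes. PER2, which is partly redundant with PER1, was at 44.8, 43.2 and 41.4 CPM in si-NC and at 28.2, 31.3 and 28.4 CPM in si-SRSF11. The groups were far apart relative to their spread, and PER2 fell to 67.9% (95% interval 61.4 to 75.1%, log2 fold change -0.56, SE 0.0699, adjusted p = 4.2e-06).

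PER3, a paralogue that is largely dispensable for the rhythm itself, had the fewest reads of the set, 181 to 198 counts in si-NC and 145 to 173 in si-SRSF11. Its level was 13.2, 13.0 and 11.6 CPM in si-NC and 11.1, 9.72 and 8.89 CPM in si-SRSF11, so that the lowest control and the highest knockdown library lay close together. PER3 fell to 78.5% (95% interval 66.3 to 92.9%, log2 fold change -0.35, SE 0.117, adjusted p = 0.032). The call was lost with DESeq2 (adjusted p = 0.063) and without si-NC replicate 1, si-NC replicate 2, si-SRSF11 replicate 2 or si-SRSF11 replicate 3 (adjusted p = 0.12, 0.096, 0.088 and 0.11). PER1 lies on chromosome 17 (8140472 to 8156506, minus strand), PER2 on chromosome 2 (238244038 to 238290102, minus strand) and PER3 on chromosome 1 (7784320 to 7845177, plus strand).

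The cryptochromes, the repressors that bind the ARNTL and CLOCK dimer directly, both fell. CRY2 was at 41.9, 39.1 and 43.7 CPM in si-NC and at 34.2, 31.1 and 28.0 CPM in si-SRSF11. Its replicates varied more than those of CRY1, yet the groups did not overlap, and it fell to 74.7% (95% interval 66.9 to 83.4%, log2 fold change -0.42, SE 0.0767, adjusted p = 3.3e-04). CRY1, generally the stronger repressor, was at 52.3, 52.8 and 53.7 CPM in si-NC and at 47.3, 43.3 and 45.3 CPM in si-SRSF11. The decrease of CRY1 was smaller, to 85.6% (95% interval 78.5 to 93.3%, log2 fold change -0.22, SE 0.0602, adjusted p = 0.0085). Without si-SRSF11 replicate 2 its adjusted p was 0.050 and the call was lost. CRY1 lies on chromosome 12 (106991364 to 107093829, minus strand) and CRY2 on chromosome 11 (45847118 to 45883248, plus strand).

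NR1D1 and NR1D2 encode the haem-binding receptors that hold ARNTL down in the second loop. NR1D1 was at 148, 141 and 141 CPM in si-NC and at 87.3, 89.2 and 82.7 CPM in si-SRSF11. It had the highest counts of the set, 2142 to 2198 in si-NC and 1348 to 1450 in si-SRSF11, and the smallest p, rank 15 of all tested genes. NR1D1 fell to 60.2% of its control level (95% interval 56.1 to 64.6%, log2 fold change -0.73, SE 0.0492, adjusted p = 6.1e-10). NR1D2 was at 97.4, 87.0 and 86.7 CPM in si-NC and at 77.9, 78.3 and 77.0 CPM in si-SRSF11. Control replicate 1 stood above the other two, and the knockdown libraries were close to each other. NR1D2 fell to 86.1% (95% interval 79.5 to 93.2%, log2 fold change -0.22, SE 0.0551, adjusted p = 0.0058), and without si-NC replicate 1 its adjusted p was 0.076. NR1D1 lies on chromosome 17 (40092787 to 40100725, minus strand) and NR1D2 on chromosome 3 (23945260 to 23980618, plus strand).

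DBP, the D-box output factor and a direct target of the dimer, fell furthest of the 10. It was at 61.4, 58.1 and 68.3 CPM in si-NC and at 30.9, 32.0 and 36.9 CPM in si-SRSF11. Replicate 3 was the highest of its condition in both, and every knockdown library lay far below every control library. DBP fell from 62.6 ± 5.20 to 33.3 ± 3.21 CPM (SD, n = 3), to 53.1% of its control level (95% interval 47.8 to 59.1%, log2 fold change -0.91, SE 0.0743, adjusted p = 9.1e-09). By log2 fold change, DBP was within the lowest 1.11% of all tested genes. DBP lies on chromosome 19 (48630030 to 48637438, minus strand).

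**Figure D2:**
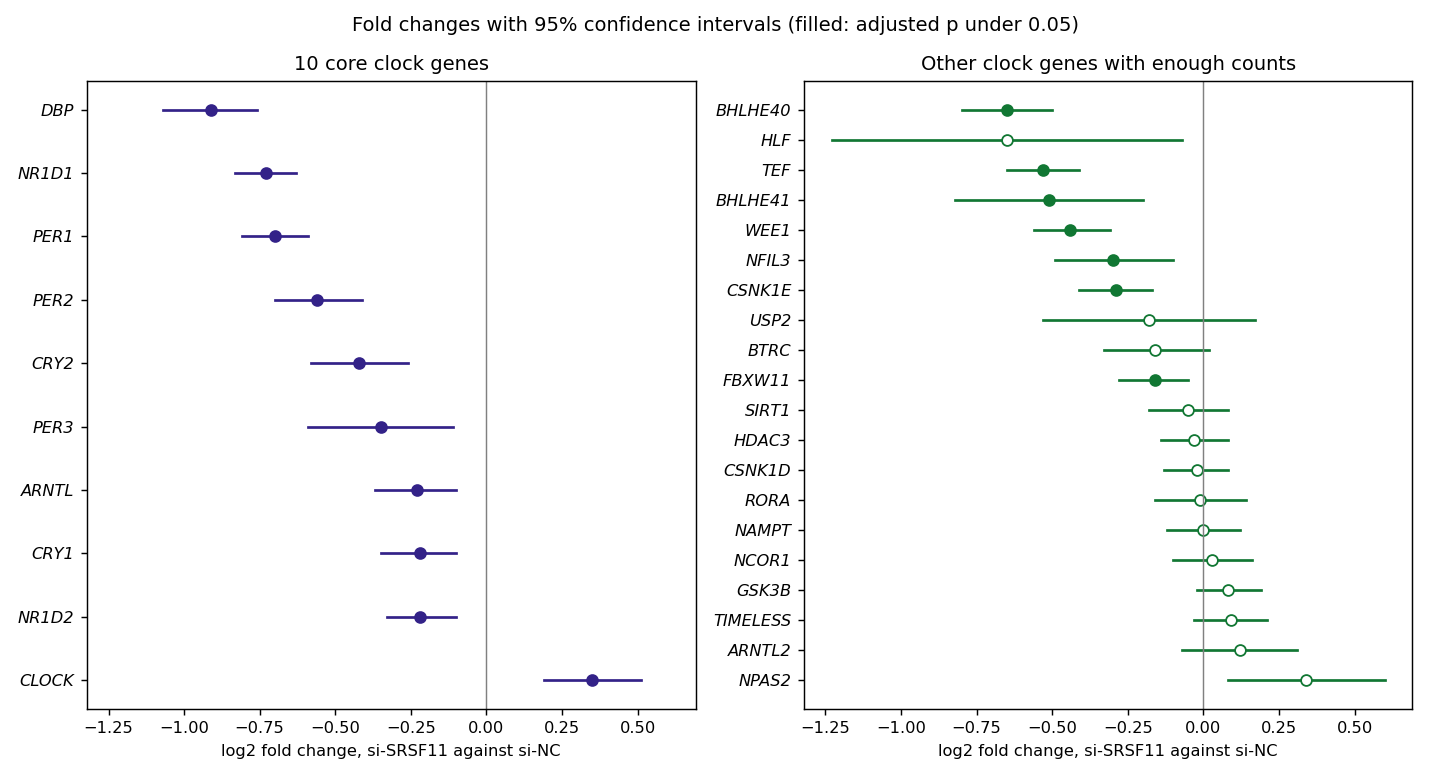
Log2 fold change in si-SRSF11 against si-NC (points, filled where the adjusted p was under 0.05) with its 95% interval (bars) for the 10 clock genes (left) and 20 of the 22 other tested clock genes (right). On the left CLOCK alone lies to the right of 0 and the others run from -0.22 for NR1D2 and CRY1 to -0.91 for DBP, and on the right the 7 filled points all lie below 0.

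**Figure D3:**
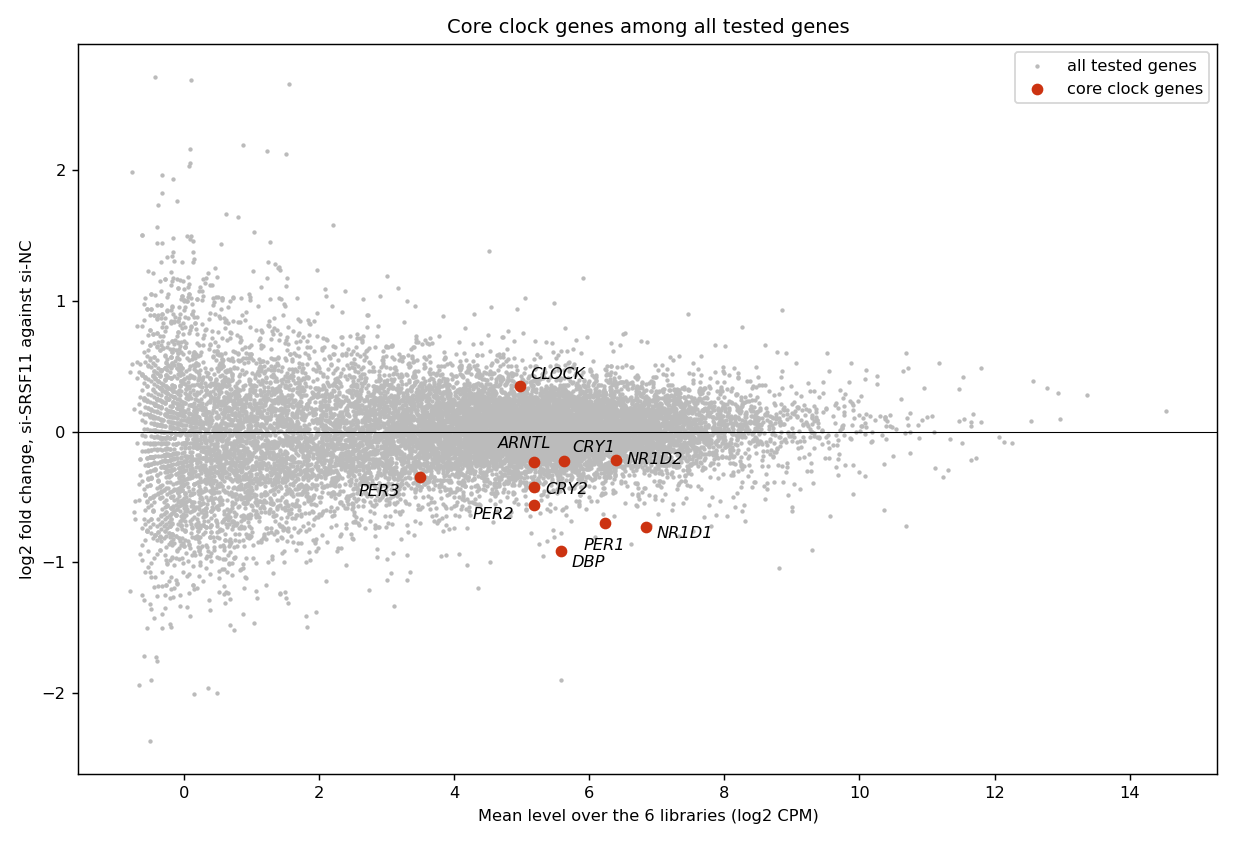
Log2 fold change against the mean level (log2 CPM over the 6 libraries) of all 15801 tested genes (grey) and the 10 clock genes (red). DBP, PER1 and NR1D1 lie at the lower edge of genes of like level, while ARNTL, CRY1 and NR1D2 lie inside the cloud.

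Set against each other, the decreases were unequal. The intervals of DBP, NR1D1 and PER1 ended at or below 66.3% of the control level, whereas those of ARNTL, CRY1 and NR1D2 began at or above 77.2%. The levels of PER2 (67.9%), CRY2 (74.7%) and PER3 (78.5%) lay between, but their intervals overlapped some of these. To compare paralogues without any scaling, the log2 ratio of their counts was taken in each library.

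NR1D1 against NR1D2 moved most. Their log2 ratio was 0.61, 0.70 and 0.70 in si-NC and 0.16, 0.19 and 0.10 in si-SRSF11, a fall from 1.59 to 1.11 counts of NR1D1 per count of NR1D2. The groups lay well apart, with a difference of -0.52 in log2. The log2 ratio of CRY1 to CRY2 went the other way, from 0.35 ± 0.0733 to 0.55 ± 0.129 (SD, n = 3). PER1 was higher relative to PER3 in si-NC (2.89 ± 0.0889) than in si-SRSF11 (2.54 ± 0.155). The difference was -0.14 for PER1 to PER2 and -0.21 for PER2 to PER3. Single libraries carried much of 2 of these shifts: without si-SRSF11 replicate 3 the CRY1 to CRY2 difference was 0.12 in place of 0.20, and without si-SRSF11 replicate 1 the PER2 to PER3 difference was -0.10. None of the 5 ratios overlapped between conditions, and each exact two-sided permutation test gave p = 0.10, also after Benjamini-Hochberg adjustment over the 5, the smallest the design allows. Single genes did not overlap in 38.8% of all tested genes, and no such share was taken for ratios. The PER ratios are not separate results, since PER1 to PER3 is fixed by PER1 to PER2 and PER2 to PER3. PER2 to PER3 was narrowly apart, at 1.73 or more in si-NC and 1.68 or less in si-SRSF11.

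**Figure D4:**
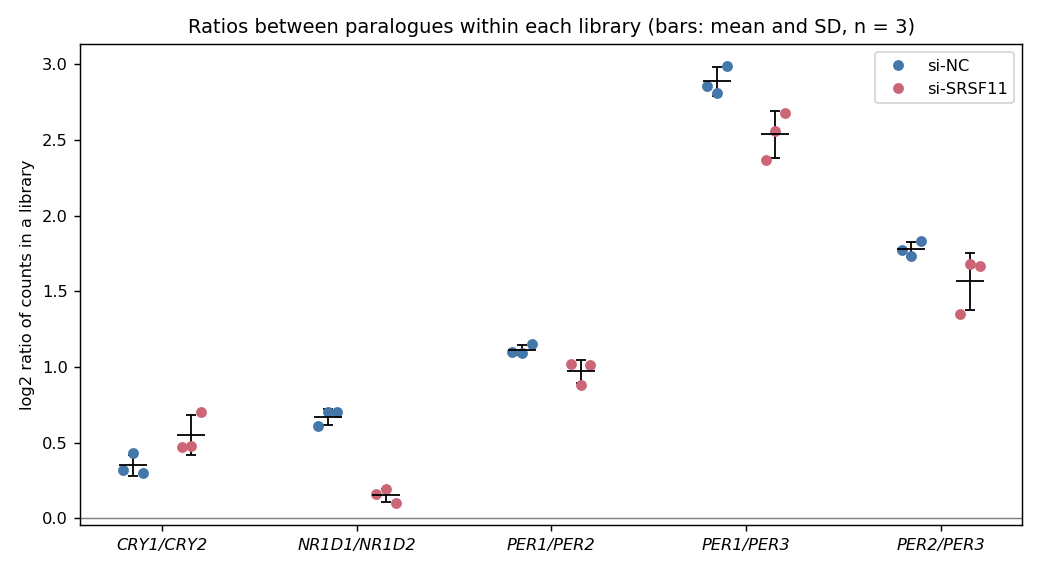
Log2 ratio of the counts of 2 paralogues within each library (points), with the mean and SD of each condition (bars). The NR1D1/NR1D2 ratio drops from 0.67 to 0.15, while CRY1/CRY2 is the only ratio that is higher in si-SRSF11.

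Levels of different genes were compared only per length, as CPM per kilobase of all annotated exons. In si-NC, NR1D1 was the highest at 51.8 ± 1.52, followed by NR1D2 (15.5 ± 1.05), PER1 (13.3 ± 0.328), CRY1 (10.5 ± 0.134) and DBP (9.57 ± 0.795; SD, n = 3 for each). CRY2 (6.71 ± 0.377), PER2 (6.27 ± 0.248), ARNTL (5.83 ± 0.0482), CLOCK (2.33 ± 0.132) and PER3 (1.56 ± 0.106) followed. The libraries of CRY1 and DBP overlapped, and so did those of CRY2 and PER2, so the order within these pairs is not set by the data. In si-SRSF11, CRY1 (8.95 ± 0.395) stood above PER1 (8.18 ± 0.0238) and ARNTL (4.95 ± 0.214) above PER2 (4.26 ± 0.249). DBP and CRY2 overlapped in si-SRSF11, as did CRY2 and ARNTL, while NR1D1 was still highest and PER3 lowest.

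The length used moved DBP and ARNTL most, because their annotated exons reach 6544 and 6726 bases while their longest coding transcripts hold 2229 and 2788. Per kilobase of the longest coding transcript, a length chosen after the values were seen, DBP came after NR1D1 in si-NC at 28.1 ± 2.33, and ARNTL reached 14.1 ± 0.116. ARNTL then lay above CRY2 (9.89 ± 0.556) and PER2 (6.75 ± 0.268), and CLOCK (2.66 ± 0.150) and PER3 (2.00 ± 0.136) were lowest under both lengths.

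**Figure D5:**
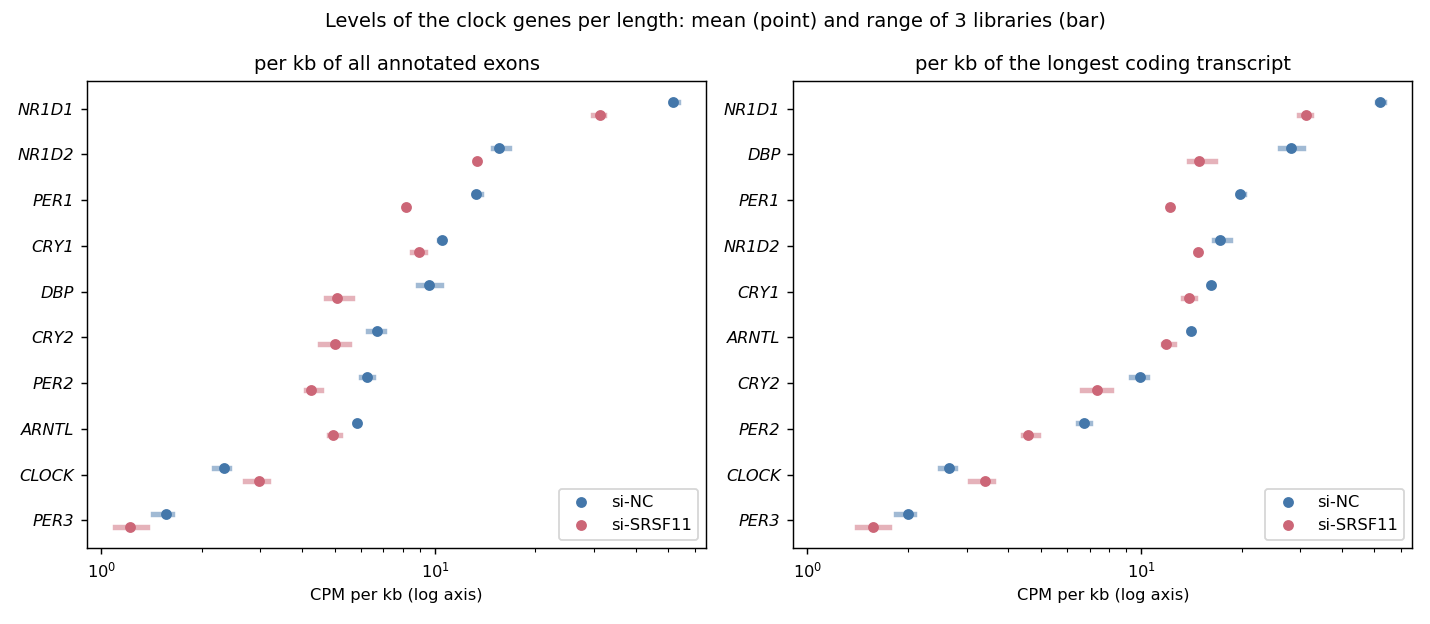
Mean level (points) and range of 3 libraries (bars) of each clock gene in CPM per kilobase on a log axis, per length of all annotated exons (left) and of the longest coding transcript (right). NR1D1 is highest and PER3 lowest in both panels, and DBP stands higher in the right panel.

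Some exon bases of the clock genes are shared with other genes, and no source used here says that reads were counted by strand, so reads on those bases cannot be assigned with certainty. PER3 shared 16.7% of its exon bases, DBP 10.1% and NR1D1 9.49%, and the other 7 genes shared between 0% and 2.73%. NR1D1 overlaps THRA, the thyroid hormone receptor alpha gene on the opposite strand, over 263 bases. THRA was at 54.7 ± 1.04 CPM in si-NC and 56.9 ± 3.72 CPM in si-SRSF11 (SD, n = 3), and its log2 fold change was 0.06 (adjusted p = 0.53). DBP shares 661 bases with SPHK2, a sphingosine kinase gene, whose log2 fold change was also 0.06 (48.4 ± 3.67 to 50.6 ± 0.695 CPM, adjusted p = 0.51). Both neighbours had values near their control level, and the part of the shared bases in the NR1D1 and DBP values was not tested.

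PER3 shares 868 bases with UTS2, which had 30 to 43 counts per library and a log2 fold change of -0.18 (adjusted p = 0.64). CLOCK shares 76 bases with TMEM165, a Golgi membrane protein gene on the opposite strand, and TMEM165 rose too, from 127 ± 2.61 to 141 ± 2.48 CPM (log2 fold change 0.15, adjusted p = 0.018). These 76 bases are part of the 0.876% of CLOCK exon bases that are shared. Other overlapping genes were near 0 counts, with at most 8 in any library.

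The wider clock was described with 26 further genes of the table, of which 22 passed the filter on low counts. 7 of the 22 (31.8%) fell, beside the 11.4% of all tested genes that fell. These lists were chosen with earlier results of these data known, so the shares are a description and not a test. None was called higher by the edgeR fit with the settings given above or by DESeq2. At an unadjusted p under 0.05 in that edgeR fit, 1 (NPAS2) was higher and 8 were lower. Of all 15801 tested genes, 2984 were higher and 2747 lower at that unadjusted p. The median log2 fold change of the 22 other clock genes was -0.10, against 0.00 over all tested genes.

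The E-box repressors BHLHE40 and BHLHE41 (DEC1 and DEC2), which compete with the dimer at its motif, both fell. BHLHE40 was at 45.0, 39.7 and 43.5 CPM in si-NC and at 27.1, 28.5 and 26.1 CPM in si-SRSF11. Its groups were far apart, and it fell to 63.8% of its control level (log2 fold change -0.65, SE 0.0723, adjusted p = 8.5e-07). BHLHE41 fell from 8.69 ± 1.52 to 6.10 ± 0.359 CPM (SD, n = 3; log2 fold change -0.51, adjusted p = 0.014), and without si-NC replicate 3 its adjusted p was 0.11. CIART, a further repressor, had 0 to 3 counts and was not tested.

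Of the 3 tested D-box factors, TEF and NFIL3 fell. TEF, an activator of the same PAR bZIP family as DBP, was at 67.5, 68.3 and 68.0 CPM in si-NC and at 45.0, 46.8 and 49.2 CPM in si-SRSF11. It fell to 69.2% (log2 fold change -0.53, SE 0.0576, adjusted p = 5.9e-07). HLF, the other family member, had 21 to 38 counts and a log2 fold change of -0.65 (95% interval -1.23 to -0.07), which did not pass after adjustment (adjusted p = 0.093). NFIL3, which represses the same motif, fell from 24.8 ± 0.907 to 20.2 ± 2.41 CPM (SD, n = 3; log2 fold change -0.30, adjusted p = 0.022). Its call was lost without si-NC replicate 1, si-NC replicate 2 or si-SRSF11 replicate 1 (adjusted p = 0.074, 0.075 and 0.12).

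Neither the activator paralogues NPAS2 and ARNTL2 nor the receptor gene RORA was called. NPAS2, which can stand in for CLOCK in the dimer, was at 9.79, 9.87 and 11.7 CPM in si-NC and at 15.9, 11.9 and 12.0 CPM in si-SRSF11. Its groups did not overlap, but the adjusted p was 0.054 (log2 fold change 0.34, 95% interval 0.08 to 0.60). Without si-SRSF11 replicate 1, its highest library, the log2 fold change was 0.19 (adjusted p = 0.32), while leaving out si-NC replicate 3, si-SRSF11 replicate 2 or si-SRSF11 replicate 3 brought the adjusted p to 0.038, 0.043 and 0.034. ARNTL2, the paralogue of ARNTL, had a log2 fold change of 0.12 (95% interval -0.07 to 0.31, adjusted p = 0.38). RORA, a receptor that activates ARNTL at the motif NR1D1 represses, had one of -0.01 (95% interval -0.16 to 0.14, adjusted p = 0.94), while RORB had 0 counts.

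Of 6 tested kinases and ubiquitin ligases that set the stability of PER and CRY proteins, CSNK1E and FBXW11 fell. CSNK1E, casein kinase 1 epsilon, fell from 128 ± 6.17 to 104 ± 9.97 CPM (SD, n = 3; log2 fold change -0.29, adjusted p = 0.0010), and FBXW11, a beta-TrCP ligase subunit, from 70.6 ± 3.39 to 63.0 ± 0.747 CPM (log2 fold change -0.16, adjusted p = 0.035). The call of FBXW11 was lost with DESeq2 (adjusted p = 0.058) and without si-NC replicate 1, si-NC replicate 2 or si-SRSF11 replicate 2. The closely related CSNK1D had a log2 fold change of -0.02 (95% interval -0.13 to 0.08, adjusted p = 0.77). CSNK1E shares 21.1% of its exon bases with another gene, and CSNK1D shares 16.8%, so reads on those bases cannot be assigned with certainty. GSK3B (0.08) and BTRC (-0.16) did not pass the test either.

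The corepressor and partner genes NCOR1, HDAC3, TIMELESS and SIRT1 had log2 fold changes between -0.05 and 0.09, and none was called. Among outputs, WEE1, a cell cycle kinase gene known as a target of the dimer, was at 51.9, 52.8 and 53.3 CPM in si-NC and at 38.2, 39.4 and 38.9 CPM in si-SRSF11. The replicates of WEE1 were close in both conditions, and it fell by 0.44 on the log2 scale (SE 0.0600, adjusted p = 1.3e-05). NAMPT, the NAD salvage enzyme, had a log2 fold change of 0.00 (95% interval -0.12 to 0.12), and USP2, a deubiquitinase, had one of -0.18 (adjusted p = 0.48). PPARGC1A had 0 to 2 counts and FBXL21 had 0.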

How the data were processed

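RNA-seq of LoVo cells gave 6 libraries, grouped by the deposited labels. The authors deposited raw counts per gene, with no normalization and no filter, under hg38 per the labels; the aligner and the counting program are not given in the sources used here. The deposited gene length (another kind of value, in bases) equalled the union of GENCODE 29 exons for all 58735 genes.

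Counts were scaled by TMM and tested with edgeR (version 4.0.16, R version 4.3.3; glmQLFit, glmQLFTest, condition alone); the standard error came from the F statistic. The common coefficient of variation between replicates was 5.34%, and the precision of a single gene depends on its counts. Alternatives were DESeq2 (version 1.42.0), other scalings, filters and thresholds, a replicate block, and the omission of each library in turn. Exon overlap used bedtools (version 2.31.1). The fit was tested on simulated data.

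Named were the 10 clock genes, the genes of the other clock lists, SRSF11, and genes sharing exon bases with a clock gene. The members and lists were chosen with earlier results of these data known. Some genes of the lists are counted but not reported here by name. Splicing was not analysed here.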

Additional observations from a re-analysis of the deposited data

How the results depend on the processing

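All log2 fold changes of the 10 clock genes kept their direction under every alternative, and at an adjusted p under 0.05 the calls of ARNTL, CLOCK, PER1, PER2, CRY2, NR1D1 and DBP were kept in each. PER3 had a log2 fold change of -0.36 with DESeq2 and was not called; with each library left out, it ranged from -0.44 to -0.28, CRY1 from -0.26 to -0.19 and NR1D2 from -0.25 to -0.16, with the lost calls named above. The number of clock genes called was 9 with DESeq2, where 3060 of all 15801 tested genes were called. With a library left out it was 8 to 10, beside 2741 to 3871 of all 15543 to 15626 genes then tested. At an adjusted p under 0.01 it was 8, where 2275 of all tested genes were called. It was 0 of either direction at an absolute log2 fold change over 1. Of the other clock genes, 5 to 8 were called with a library left out; the number called higher was 1 (NPAS2) with no filter on low counts and with robust dispersion, and 0 to 1 with a library left out. With the replicate number as a block 10 clock genes, 7 other clock genes and 4036 of all genes were called. To check the numbers, each library's log2 CPM minus the mean of its condition was correlated across conditions, over 11796 genes of higher level. These deviations correlated at -0.021, 0.085 and 0.126 for same-numbered libraries. Different-numbered libraries correlated at -0.117 to 0.044. The deviations of replicates 2 and 3 correlated best with their own number, and those of replicate 1 did not. Since no source ties the numbers to the study's pairs of RNA samples, they were not taken as pairs. Medians of all genes stayed within 0.03 of 0 in log2 under the 4 scalings. The low counts of PER3 and HLF limit what can be seen of them.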
